A study of Homo sapiens with 8 samples.

Results

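The expression of 10 genes of the Notch pathway was followed in LN229 glioblastoma cells whose ectopic Survivin, without drug, lies mostly in the cytoplasm or mostly in the nucleus. The genes were taken by symbol from the count table, in which all 10 were found among 26364 genes. They comprise the receptors NOTCH1, NOTCH2 and NOTCH3, the ligands JAG1, JAG2 and DLL1, and the target genes HES1, HEY1, HEY2 and HEYL.

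Notch receptors are single-pass membrane proteins that bind Jagged or Delta-like ligands on a neighbouring cell. Ligand binding lets ADAM proteases and then γ-secretase cut the receptor, and the released intracellular domain enters the nucleus. There it joins the DNA-binding protein RBPJ and a Mastermind coactivator and switches on repressors of the HES and HEY families. In glioma the pathway is known for its link to stem-like cells.

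RNA-seq was performed on 2 stable single clones of LN229, a human glioblastoma cell line. Clone D6, named Surv-GFP, carries wild-type Survivin (BIRC5) fused to eGFP in pcDNA3.1, and the protein is mostly cytoplasmic in untreated cells. Clone L2, named SurvNESmut-GFP, carries the same fusion with a nuclear export signal altered by L96A and L98A, and its Survivin is mostly nuclear. Each clone was left untreated or was exposed to 50 µM temozolomide (TMZ), a methylating anticancer drug, for 48 h. All cells grew in DMEM with 10% FBS and 0.75 mg/ml G418, and the labels do not say whether untreated cells received the DMSO in which TMZ was dissolved. Since each construct is represented by 1 clone, effects of the construct and of the clone cannot be told apart.

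Every one of the 4 groups had 2 libraries, lettered a and b, with 15826923 to 18861603 reads on genes. Whether the letters are separate cultures or technical duplicates is not settled by the sources, so all p-values measure only the spread between letters. As a check of the exposure, CDKN1A, which encodes the cell cycle inhibitor p21, rose from 81.9 to 941 CPM (counts scaled to a common library size) in Surv-GFP and from 118 to 460 CPM in SurvNESmut-GFP. Letters a and b had 86.6 and 77.2 CPM without and 907 and 975 CPM with TMZ in Surv-GFP, and 117 and 119 CPM against 429 and 492 CPM in the other clone, so both letters of a group lay on the side its label gives. BIRC5 reads, which do not separate transgene from endogenous gene, went from 1132 to 1983 CPM with TMZ in Surv-GFP and from 411 to 257 CPM in SurvNESmut-GFP. Of 13 glial and glioma markers, 10 exceeded 1 CPM in every library. The astrocyte genes GFAP and AQP4 were under 1 CPM in every library, and ALDH1L1 was at 0 in all of them. The summed level of the 13 markers in Surv-GFP was 6523 to 6636 CPM without and 4200 to 4328 CPM with TMZ. In SurvNESmut-GFP it was 4735 to 4932 and 4192 to 4317 CPM. Most of the sum was VIM, with 3738 CPM in untreated Surv-GFP and 3003 CPM in untreated SurvNESmut-GFP. Single glial genes stood further apart between the untreated clones, such as S100B (777 against 40.6 CPM), chosen after its values were seen. NES (735 against 965 CPM), CD44 (574 against 653 CPM) and EGFR (49.7 against 54.9 CPM) had the higher mean in SurvNESmut-GFP. Of the neuron markers RBFOX3, SNAP25, SYP and MAP2, all but RBFOX3 exceeded 1 CPM. Their summed level was 172 to 188 CPM in untreated Surv-GFP and 65.6 to 77.3 CPM with TMZ, against 39.2 to 41.0 and 25.5 to 30.9 CPM in SurvNESmut-GFP, and most of it was MAP2 (160 against 19.1 CPM in the untreated clones), while SNAP25 was at 18.7 and 18.4 CPM. SYP went the other way, with 1.61 CPM in untreated Surv-GFP and 2.67 CPM in untreated SurvNESmut-GFP. The part of the glial and neuron markers in the results was not tested. The immune, endothelial and epithelial lists each summed to at most 0.867 CPM in any library.

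The core of the RBPJ binding motif, TGGGAA or TTCCCA on the other strand, was searched in the RefSeq promoter windows of the members, which run from 250 bases before to 50 bases after the gene start. Windows were given for 8 members, and 3 of them held the motif. Of all 35116 windows of this length, 24.0% held it at least once and 3.80% at least 2 times. The promoter stretches with the motif are shown because HES1 and HEY2 had reads in all groups and HEYL in none. The capitals mark the motif (GRCh38.p14, 5′ to 3′ along the gene).
HES1 chr3:194136038-194136147, plus strand: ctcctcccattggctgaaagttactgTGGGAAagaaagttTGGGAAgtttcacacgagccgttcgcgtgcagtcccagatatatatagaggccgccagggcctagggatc
HEY2 chr6:125749407-125749436, plus strand: tccgcggccgcgTTCCCAcgcctcggctgg
HEY2 chr6:125749617-125749646, plus strand: agagttgcggcgTGGGAAagagccgctagg
HEYL chr1:39639804-39639833, minus strand: ccgcctagggccTTCCCAcggctcggcggc
HEYL chr1:39639725-39639754, minus strand: aggaaagggcccTGGGAAagggcggtggcg

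HES1 carries both of its motifs close to the gene start, and their first bases lie 14 bases apart. In HEY2 the first bases lie at -213 and -3, counted from the gene start, and in HEYL at -178 and -99. The windows of NOTCH1, NOTCH2, NOTCH3, JAG1 and JAG2 did not contain these letters. A match is a run of letters and not evidence of a bound site.

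Levels of different genes were compared as TMM-scaled CPM per kb of exon (RPKM), with exon lengths from GENCODE v29. In untreated Surv-GFP cells NOTCH2 (21.1 ± 0.673 RPKM, SD, n = 2), HES1 (20.4 ± 9.33) and NOTCH1 (18.9 ± 0.273) led the members. HEY1 (8.71 ± 0.241), HEY2 (8.35 ± 0.206) and JAG1 (4.89 ± 0.631) followed. NOTCH3 (0.151 ± 0.0105) and JAG2 (0.0811 ± 0.0171) were far lower. The letters of HES1 lay on both sides of NOTCH1 and NOTCH2, so the order of these 3 was not resolved.

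TMZ changed this order. In TMZ-exposed Surv-GFP cells JAG1 stood first (27.6 ± 1.67 RPKM, SD, n = 2), above NOTCH2 (15.6 ± 0.547). HES1 (13.3 ± 0.892), NOTCH1 (12.5 ± 0.954) and HEY1 (11.9 ± 0.853) came next, and the libraries of neighbours in this trio overlapped. HEY2 (2.25 ± 0.199), NOTCH3 (0.348 ± 0.0181) and JAG2 (0.0433 ± 0.00221) closed the order.

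In untreated SurvNESmut-GFP cells HES1 (21.7 ± 0.549 RPKM, SD, n = 2) and NOTCH2 (19.8 ± 0.589) led, followed by NOTCH1 (11.5 in both libraries) and JAG1 (5.22 ± 0.228). HEY2 (2.26 ± 0.0413) and HEY1 (2.01 ± 0.263) were lower than in Surv-GFP. With TMZ, HES1 (17.9 ± 2.78) and NOTCH2 (15.3 ± 0.884) remained ahead of JAG1 (10.4 ± 1.89) and NOTCH1 (9.93 ± 0.136), and the last 2 overlapped. HEY1 (2.24 ± 0.278) and HEY2 (0.856 ± 0.157) followed. NOTCH3 and JAG2 stayed under 0.2 RPKM in both SurvNESmut-GFP groups.

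**Figure D1:**
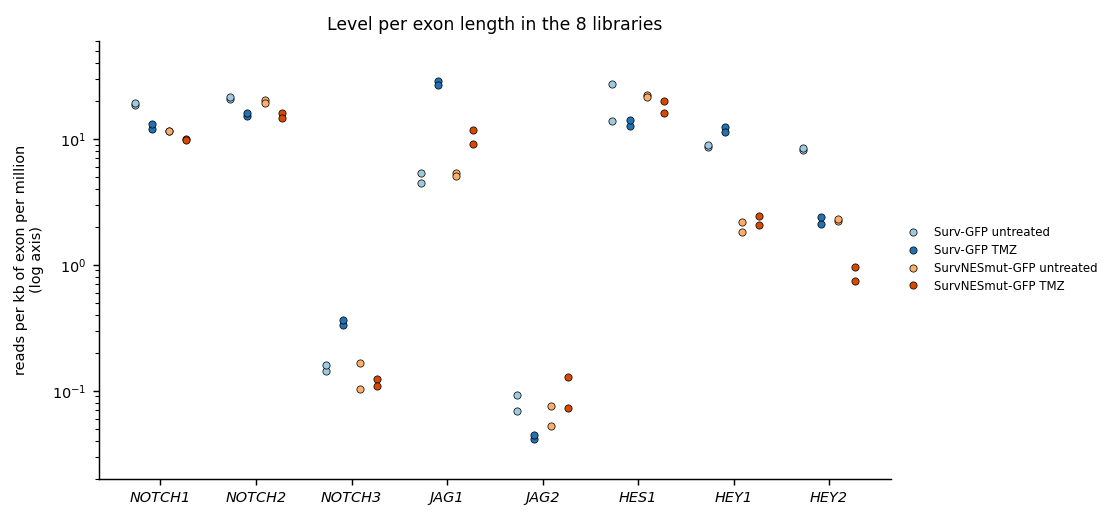
Level per exon length (RPKM, log axis) of the 8 members with enough reads, with 1 point per library and 1 colour per group. JAG1 lies below HEY1 and HEY2 in untreated and above all other members in TMZ-exposed Surv-GFP cells, while NOTCH3 and JAG2 lie below the other members in every group.

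DLL1 and HEYL were not detectable at this depth. DLL1, a Delta-like ligand, had 1 read in a single library of untreated and of TMZ-exposed Surv-GFP cells and 0 in SurvNESmut-GFP cells. HEYL had 0 reads in all 8 libraries, which allows up to 0.0820 to 0.0909 CPM per group (3 counts). The limits cover counting error only. The other 8 members passed the filter on low counts and were among the 14201 genes tested.

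The first question was what TMZ changed in each clone. In Surv-GFP cells JAG1, NOTCH3 and HEY1 rose and NOTCH1, NOTCH2, HES1 and HEY2 fell, at an adjusted p of at most 0.05 with edgeR's quasi-likelihood F test. These are 3 of 8 tested members higher (37.5%) and 4 lower (50%), beside 30.1% of all tested genes higher and 28.9% lower. In SurvNESmut-GFP cells JAG1 rose and NOTCH1, NOTCH2 and HEY2 fell. These are 1 higher (12.5%) and 3 lower (37.5%), beside 18.6% and 19.1% of all genes. With 8 genes, a single call moves such a share by 12.5 percentage points. The median log2 fold change of the 8 members was -0.52 in the Surv-GFP clone and -0.21 in the SurvNESmut-GFP clone, against 0.00 over all tested genes in both. In RNA from whole cultures, fewer cells that express a gene and less RNA per cell cannot be told apart.

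**Figure D2:**
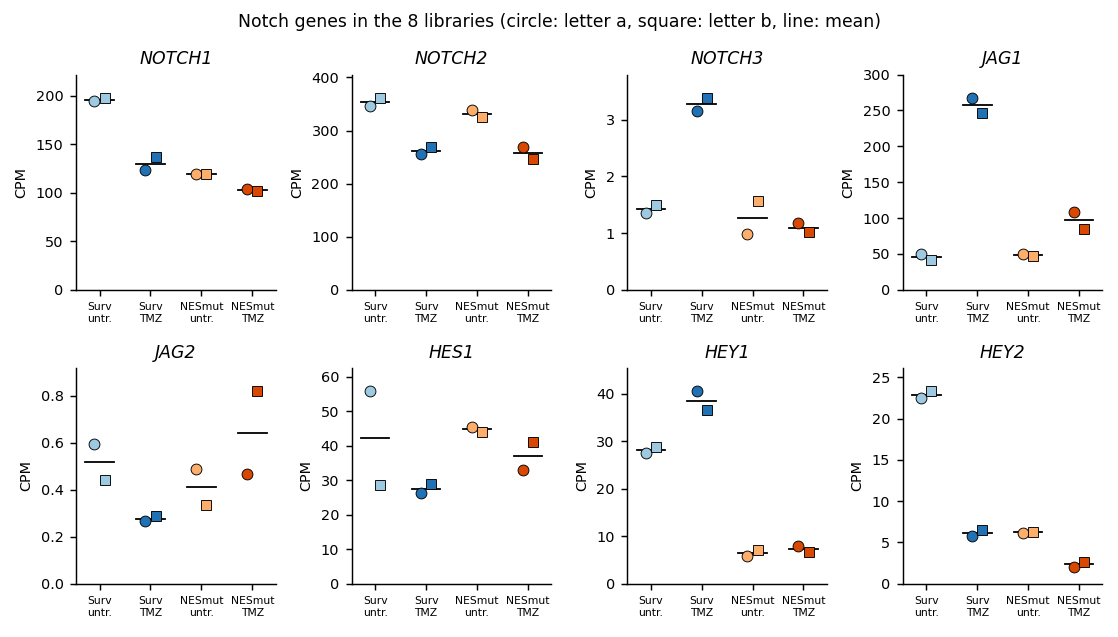
CPM of 8 Notch members in the 4 groups, with letter a as a circle, letter b as a square and the mean as a line, on axes that start at 0. JAG1 rises with TMZ in both clones (45.4 to 257 and 48.5 to 96.6 CPM), HEY2 falls in both, and the letters of HES1 lie far apart in untreated Surv-GFP cells.

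Among the receptors, NOTCH1 had 194 and 198 CPM in untreated Surv-GFP and 123 and 137 CPM with TMZ. In SurvNESmut-GFP it had 119 CPM in both untreated libraries and 104 and 102 CPM with TMZ. All TMZ libraries were below the untreated ones of their clone. The log2 fold change was -0.59 ± 0.05 (SE) in Surv-GFP (edgeR adjusted p = 6.1e-08) and -0.20 ± 0.05 in SurvNESmut-GFP (adjusted p = 0.00812).

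NOTCH2 was the most read receptor. It had 346 and 362 CPM in untreated and 255 and 268 CPM in TMZ-exposed Surv-GFP cells. The SurvNESmut-GFP libraries had 339 and 325 CPM without and 268 and 247 CPM with TMZ. The fall was similar in size, -0.44 ± 0.05 (SE) on the log2 scale in Surv-GFP (edgeR adjusted p = 2.6e-06) and -0.37 ± 0.05 in SurvNESmut-GFP (adjusted p = 4.9e-05). The difference between both effects was 0.07 with a 95% interval of -0.09 to 0.23. NOTCH2NL, whose sequence is nearly identical to a stretch of NOTCH2, had 345 to 515 reads per library, and the sources do not say how the counting divided shared reads.

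NOTCH3, a receptor known from vascular smooth muscle, was read at a much lower level. It had 25 and 27 reads (1.35 and 1.49 CPM) in untreated Surv-GFP and 59 in each TMZ library (3.15 and 3.39 CPM). In SurvNESmut-GFP it had 18 and 28 reads (0.976 and 1.56 CPM) without and 20 and 16 reads (1.17 and 1.01 CPM) with TMZ. NOTCH3 thus rose in Surv-GFP, without overlap of the groups, by 1.20 ± 0.24 (SE) on the log2 scale (edgeR adjusted p = 4.9e-04). In SurvNESmut-GFP the libraries overlapped and the value was -0.21 ± 0.32 (adjusted p = 0.647).

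NOTCH4, the remaining receptor of the family, was written down as a related gene and not as a member. It had 6.45 and 6.34 CPM in untreated and 8.77 and 7.57 CPM in TMZ-exposed Surv-GFP cells, and 2.40 to 3.11 CPM in SurvNESmut-GFP. Its log2 fold change with TMZ was 0.36 ± 0.14 (SE) in Surv-GFP (edgeR adjusted p = 0.0424) and -0.11 ± 0.21 in SurvNESmut-GFP (adjusted p = 0.711). The call in Surv-GFP was lost with DESeq2 (adjusted p = 0.275) and with the replicate block (edgeR adjusted p = 0.0535). It was also lost with DESeq2 size factors (edgeR adjusted p = 0.0557) and with library size alone (edgeR adjusted p = 0.0549). The same held with no filter on low counts (edgeR adjusted p = 0.0537) and with a filter of 1 CPM in 2 libraries (edgeR adjusted p = 0.0692). With any 1 of the 4 Surv-GFP libraries left out it was lost too, at log2 fold changes of 0.25 to 0.42.

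The ligand JAG1 showed the largest TMZ effect of the 8 tested members in Surv-GFP. Its level rose from 49.6 and 41.3 CPM to 268 and 246 CPM, and every ratio of a TMZ to an untreated library lay between 4.97 and 6.49. In SurvNESmut-GFP it rose from 50.0 and 47.0 CPM to 109 and 84.2 CPM, with ratios of 1.69 to 2.32. The groups did not overlap in either clone. The log2 fold change was 2.50 ± 0.10 (SE) in Surv-GFP (edgeR adjusted p = 2.2e-12), a 5.66-fold rise, and 1.0 ± 0.10 in SurvNESmut-GFP (adjusted p = 1.0e-06), a 1.99-fold rise. Of all 14201 genes, 163 had a larger log2 fold change in Surv-GFP and 435 in SurvNESmut-GFP. In the annotation 79 bases of JAG1 exons overlap an antisense transcript, and nothing in the sources tells whether the counting used the strand.

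JAG2, the second Jagged ligand, had 5 to 13 reads per library. It was at 0.596 and 0.441 CPM in untreated and 0.267 and 0.287 CPM in TMZ-exposed Surv-GFP cells, and at 0.488 and 0.333 CPM against 0.467 and 0.819 CPM in SurvNESmut-GFP. The log2 fold changes of -0.89 ± 0.53 (SE) and 0.62 ± 0.47 did not pass the test (edgeR adjusted p = 0.164 and 0.327). Its exons share 469 bases with a transcript on the same strand.

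Among the target genes, HEY2 fell in both clones. It had 22.5 and 23.3 CPM in untreated and 5.77 and 6.54 CPM in TMZ-exposed Surv-GFP cells. The SurvNESmut-GFP values were 6.12 and 6.28 CPM without and 2.04 and 2.65 CPM with TMZ. No TMZ library reached the untreated level of its clone. Untreated SurvNESmut-GFP cells (mean 6.20 CPM) lay within the range of TMZ-exposed Surv-GFP cells (mean 6.16 CPM). The log2 fold change was -1.90 ± 0.11 (SE) in Surv-GFP (edgeR adjusted p = 5.2e-10) and -1.41 ± 0.18 in SurvNESmut-GFP (adjusted p = 1.0e-05). Of all tested genes, 142 had a lower log2 fold change in Surv-GFP and 152 in SurvNESmut-GFP.

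HEY1, a close relative of HEY2, moved the other way in Surv-GFP. Its level was 27.6 and 28.7 CPM without and 40.5 and 36.6 CPM with TMZ, without overlap. In SurvNESmut-GFP it was 5.91 and 7.11 CPM without and 7.89 and 6.62 CPM with TMZ, and the libraries overlapped. The log2 fold change was 0.45 ± 0.09 (SE) in Surv-GFP (edgeR adjusted p = 2.5e-04) and 0.16 ± 0.14 in SurvNESmut-GFP (adjusted p = 0.408).

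**Figure D3:**
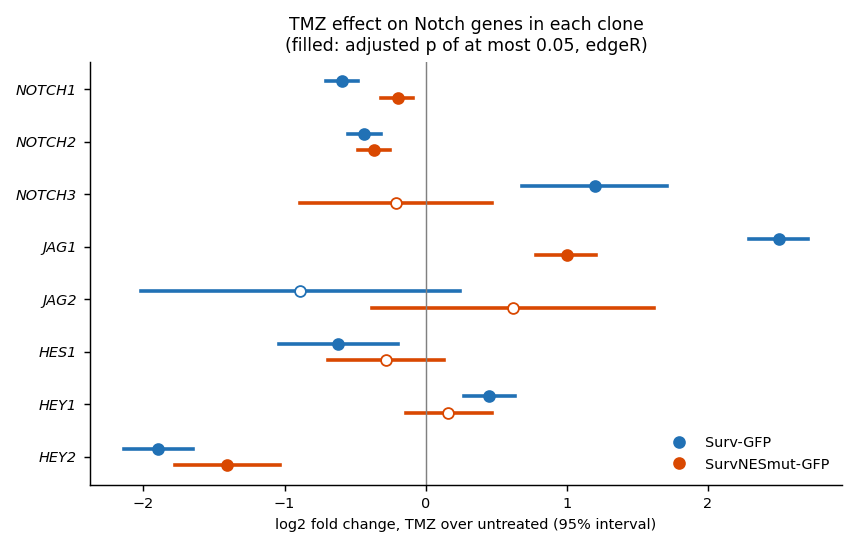
Log2 fold change with TMZ of 8 Notch members in Surv-GFP (blue) and SurvNESmut-GFP (orange), with 95% intervals, and filled points for an edgeR adjusted p of at most 0.05. JAG1 (2.50 and 1.0) and NOTCH3 (1.20 and -0.21) differ most between the clones among the members whose difference passed the test, and HEY2 is negative in both.

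HES1, the best known Notch target, gave a TMZ effect in Surv-GFP that rested on 1 library. Untreated Surv-GFP cells had 55.7 CPM in letter a and 28.5 CPM in letter b, and TMZ-exposed cells had 26.2 and 28.8 CPM. The groups therefore overlapped, although the log2 fold change of -0.62 ± 0.20 (SE) passed the test (edgeR adjusted p = 0.0136). Without untreated letter a the value was -0.05 (adjusted p = 0.768) and without untreated letter b it was -1.02. In SurvNESmut-GFP HES1 had 45.5 and 43.9 CPM without and 32.9 and 41.0 CPM with TMZ, a log2 fold change of -0.28 ± 0.19 (edgeR adjusted p = 0.274). This fall passed the test when untreated Surv-GFP letter a (adjusted p = 0.0262) or b (adjusted p = 0.0249) was left out of the common fit, and with only the 4 SurvNESmut-GFP libraries (adjusted p = 0.0350). Without TMZ-exposed Surv-GFP letter a the Surv-GFP effect was -0.55 (adjusted p = 0.0913), and with DESeq2 it was -0.63 (adjusted p = 0.130).

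The gap between the letters of HES1 in untreated Surv-GFP cells was 0.97 on the log2 scale. Among 2599 genes within 0.5 of its mean log2 CPM over the 8 libraries, 0 had a larger gap there, and HES1 ranked 2 by size of gap among 10310 genes of a mean log2 CPM of at least 3. A list of 10 immediate-early genes, written after this gap had been seen, was set beside it. All 10 were higher in letter a of untreated Surv-GFP cells, by a median of 0.74 on the log2 scale. Over the 10310 genes the median of a minus b lay between -0.01 and 0.00 in each group, with an SD of 0.10 to 0.16. FOS, an AP-1 subunit, had 512 CPM in a and 278 CPM in b, and EGR1, a zinc finger factor, had 1503 and 1100 CPM. In untreated SurvNESmut-GFP cells all 10 were also higher in a, by a median of 0.16, while HES1 differed by 0.05. In both TMZ groups 0 of 10 were higher in a, with medians of -0.32 (Surv-GFP) and -0.57 (SurvNESmut-GFP), and HES1 was at -0.14 and -0.32. Their part in the HES1 values was not tested. JAG1 was also higher in letter a of untreated Surv-GFP cells, by 0.26, and 10 of 2385 genes of like level had a larger gap.

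**Figure D4:**
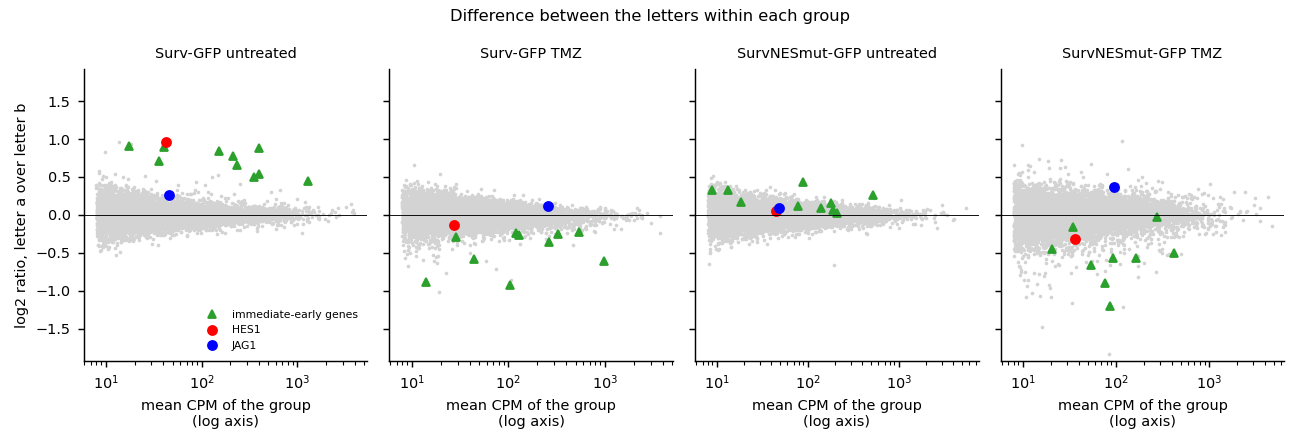
Log2 ratio of letter a over letter b against the mean CPM of the group (log axis) for genes with at least 8 CPM in that mean, with HES1 in red, JAG1 in blue and the listed immediate-early genes as green triangles. HES1 (0.97) and all 10 immediate-early genes lie above 0 in untreated Surv-GFP cells, and HES1 and those shown lie below 0 in both TMZ groups (EGR2 is under the limit in TMZ-exposed SurvNESmut-GFP cells).

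The second question was whether the TMZ effect differed between the clones. The difference was taken as the log2 fold change in SurvNESmut-GFP minus that in Surv-GFP. It was positive for NOTCH1 and negative for NOTCH3 and JAG1. These 1 higher (12.5%) and 2 lower members (25%) of 8 tested are near the background of 16.6% and 20.2% of all genes. For JAG1 the difference was -1.50 ± 0.14 (SE, edgeR adjusted p = 5.2e-07), and 290 of all tested genes had a lower value. For NOTCH1 it was 0.39 ± 0.08 (adjusted p = 7.4e-04), so the fall was smaller in SurvNESmut-GFP.

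For NOTCH3 the difference was -1.41 ± 0.41 (SE, edgeR adjusted p = 0.0124). It was lost with DESeq2 (adjusted p = 0.0863) and without letter b of untreated SurvNESmut-GFP (-1.04, edgeR adjusted p = 0.118). For the remaining members the interval of the difference was wide or close to 0. It ran from 0.02 to 0.97 for HEY2 (0.49, edgeR adjusted p = 0.0982), from -0.65 to 0.06 for HEY1 and from -0.25 to 0.92 for HES1. For HES1 it was 0.73 without untreated Surv-GFP letter b (adjusted p = 0.00122) and -0.23 without letter a. For JAG2 it ran from 0.00 to 3.02.

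The third question was how the clones differed at equal exposure, given as SurvNESmut-GFP minus Surv-GFP. Without TMZ, NOTCH1, HEY1 and HEY2 were lower in SurvNESmut-GFP. These 0 higher and 3 lower members (37.5%) of 8 stand beside 34.7% and 29.4% of all genes. The higher count was also 0 at an unadjusted p under 0.05 and with DESeq2. With TMZ, NOTCH1, NOTCH3, JAG1, HEY1 and HEY2 were lower in SurvNESmut-GFP. These 0 higher and 5 lower members (62.5%) stand beside 34.5% and 34.7% of all genes. Higher were 1 member, JAG2, at an unadjusted p under 0.05 with edgeR, and 0 with DESeq2.

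Of the members, HEY1 differed most between the clones. Its log2 difference was -2.11 ± 0.11 (SE) without TMZ (edgeR adjusted p = 8.5e-11) and -2.41 ± 0.11 with TMZ (adjusted p = 1.0e-11). Without TMZ 436 and with TMZ 330 of all tested genes had a lower value. HEY2 was lower by -1.88 ± 0.11 without (adjusted p = 4.0e-10) and -1.39 ± 0.18 with TMZ (adjusted p = 2.7e-06). In both genes no SurvNESmut-GFP library reached a Surv-GFP library of the same exposure.

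NOTCH1 was lower by -0.73 ± 0.05 (SE) without (edgeR adjusted p = 4.2e-09) and -0.33 ± 0.05 with TMZ (adjusted p = 4.3e-05). JAG1 and NOTCH3 were called with TMZ, at -1.41 ± 0.09 (adjusted p = 7.4e-10) and -1.58 ± 0.27 (adjusted p = 5.7e-05). Without TMZ their libraries overlapped between the clones, and the log2 differences were 0.09 (95% interval -0.13 to 0.32) and -0.17 (-0.80 to 0.46). NOTCH2 was at -0.09 (-0.20 to 0.02) without and -0.02 (-0.13 to 0.09) with TMZ. Without TMZ NOTCH2 passed the test with library size alone (-0.15, edgeR adjusted p = 0.0215) and with only the libraries compared (-0.13, adjusted p = 0.0132). It also passed with no filter on low counts (-0.12, edgeR adjusted p = 0.0421) and with a filter of 1 CPM in 2 libraries (-0.13, adjusted p = 0.0357). The same held with letter a or b of TMZ-exposed SurvNESmut-GFP left out (-0.13 each). JAG2 was at -0.33 (-1.36 to 0.70) without and 1.18 (0.08 to 2.28, edgeR adjusted p = 0.0527) with TMZ, where 21 reads in SurvNESmut-GFP stood against 10 in Surv-GFP. It passed without TMZ-exposed SurvNESmut-GFP letter a (edgeR adjusted p = 0.0375).

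HES1 stood at 0.09 without and 0.42 with TMZ, where the interval ran from -0.01 to 0.86. With TMZ it passed the test with no filter on low counts (0.41, edgeR adjusted p = 0.00283), with only the libraries compared (0.42, adjusted p = 0.00530) and with 1 of 3 libraries left out. These were untreated Surv-GFP letter a (adjusted p = 0.00130) or b (adjusted p = 0.00120), which are not part of this comparison, and TMZ-exposed SurvNESmut-GFP letter a (0.54, edgeR adjusted p = 0.0144). Without untreated Surv-GFP letter a, HES1 was higher in untreated SurvNESmut-GFP by 0.65 (adjusted p = 2.3e-04), and without letter b it was lower (-0.31, adjusted p = 0.0184).

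The members whose group means of log2 CPM, damped by edgeR with a prior count of 2, spanned over 1 were compared with all genes of a mean log2 CPM of at least 3 by the root mean square distance of their centred log2 CPM over the 8 libraries. JAG1 was closest to MXD1, a MAX partner (0.13), and PMAIP1, which encodes the BH3-only protein NOXA (0.14). HEY2 was closest to FZD7, a Wnt receptor (0.13), and YPEL2 (0.17). HEY1 was closest to ELMO1 (0.17), and NOTCH3 to FKBP11 (0.17) and ITGB8 (0.18). NOTCH1 and JAG2, at spans of 0.93 and 0.92, and the members with smaller spans were left out. These are descriptions of the 8 libraries.

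Around the members, 73 other genes of the pathway were listed by role, and 68 of them were tested. With TMZ 21 were higher (30.9%) and 28 lower (41.2%) in Surv-GFP, beside 30.1% and 28.9% of all tested genes. In SurvNESmut-GFP 12 were higher (17.6%) and 19 lower (27.9%), beside 18.6% and 19.1% of all genes. Their median log2 fold change was -0.09 in both clones, against 0.00 over all genes. The difference of TMZ effects was higher for 15 (22.1%) and lower for 16 (23.5%) of them, beside 16.6% and 20.2% of all genes. The counts of the single lists that follow stand beside the same shares of all genes, and with 9 to 16 genes in a list nothing particular to it is read from them.

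**Figure D5:**
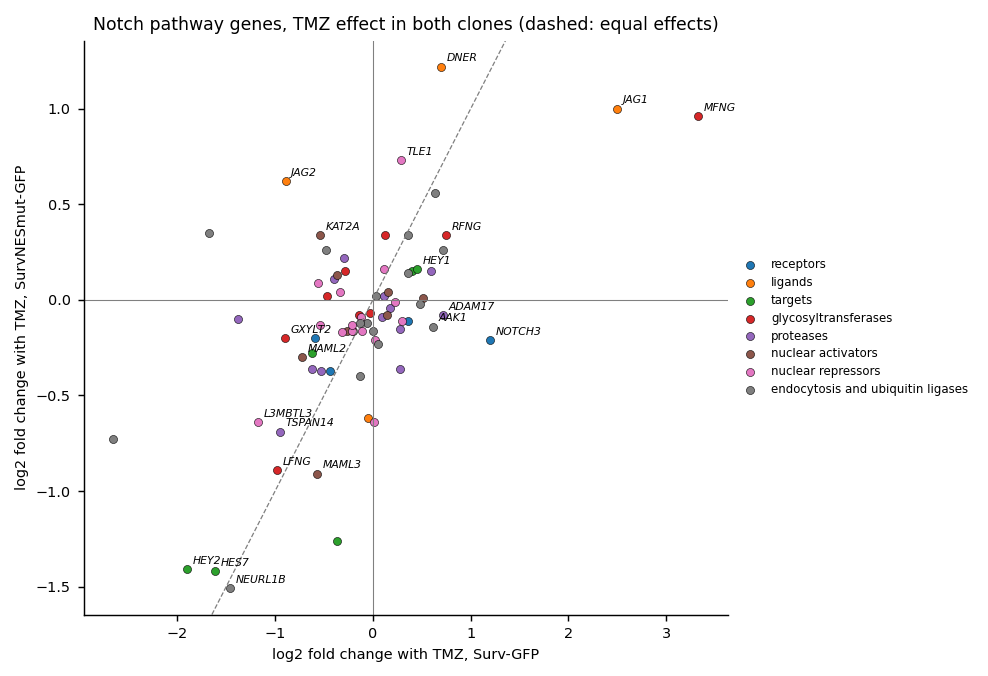
Log2 fold change with TMZ of the tested pathway genes, members included, in Surv-GFP (x axis) and SurvNESmut-GFP (y axis), with 1 colour per role and a dashed line of equal effects. JAG1 and MFNG lie to the right in Surv-GFP, and HEY2 and NEURL1B fall in both clones.

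Of the further ligands, 2 of 5 were tested. DNER, a noncanonical ligand, rose in both clones, from 3.58 to 5.85 CPM in Surv-GFP (log2 fold change 0.70 ± 0.19, SE, edgeR adjusted p = 0.00367) and from 9.46 to 22.0 CPM in SurvNESmut-GFP (1.22 ± 0.13, adjusted p = 1.2e-06). DLL3 had at most 4 reads in a library. DLL4 likewise had at most 4. Of 5 further targets, 3 were tested. HES7, a clock gene of somite formation, fell in SurvNESmut-GFP from 36 to 12 reads in all (-1.42 ± 0.53, edgeR adjusted p = 0.0434). This call was lost with only the libraries compared (edgeR adjusted p = 0.0533). It was also lost without untreated SurvNESmut-GFP letter b (-0.94) and without TMZ-exposed SurvNESmut-GFP letter a (-0.79). The same held without letter a or b of TMZ-exposed Surv-GFP (-1.42 each). In Surv-GFP HES7 went from 16 to 5 reads in all, a log2 fold change of -1.61 ± 0.77 that did not pass the test (edgeR adjusted p = 0.0842). DTX1, a target that encodes a ubiquitin ligase and was chosen after its values were seen, had 140 reads in untreated Surv-GFP and 3 in untreated SurvNESmut-GFP. The ratio was 46.5, with a 95% counting interval of 15.6 to 228. The other 2 tested targets went the other way and were higher in untreated SurvNESmut-GFP. HES4 had 1.78 CPM in untreated Surv-GFP and 5.68 CPM in untreated SurvNESmut-GFP (log2 difference 1.67 ± 0.21, SE, edgeR adjusted p = 2.6e-06). For HES7, with 16 and 36 reads, the log2 difference was 1.16 ± 0.49 (edgeR adjusted p = 0.0483).

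The glycosyltransferases add sugars to Notch and thereby tune its ligand choice. Of 9 tested, 2 rose and 4 fell with TMZ in Surv-GFP (30.1% and 28.9% of all genes), and 4 rose and 1 fell in SurvNESmut-GFP (18.6% and 19.1% of all genes). LFNG and MFNG, 2 Fringe enzymes, were far more abundant in SurvNESmut-GFP. LFNG had 1.64 CPM in untreated Surv-GFP and 22.5 CPM in untreated SurvNESmut-GFP, a log2 difference of 3.77 ± 0.16 (SE, edgeR adjusted p = 4.5e-12). With TMZ it had 0.829 and 12.1 CPM, and its fall in Surv-GFP (-0.98 on the log2 scale, edgeR adjusted p = 0.0133) was lost without untreated letter a (adjusted p = 0.0892) or TMZ-exposed letter a (adjusted p = 0.0506) or b (adjusted p = 0.0505). MFNG rose with TMZ from 0.247 to 2.55 CPM in Surv-GFP and from 9.77 to 18.9 CPM in SurvNESmut-GFP. RFNG, the third Fringe enzyme, rose from 50.4 to 84.7 CPM and from 57.0 to 72.2 CPM. POFUT1, which adds O-fucose to Notch, fell from 210 to 172 CPM in Surv-GFP and had 236 and 262 CPM in SurvNESmut-GFP. The call of its rise in SurvNESmut-GFP (0.15 on the log2 scale) was lost with DESeq2 (adjusted p = 0.0518). It was also lost with only the libraries compared (edgeR adjusted p = 0.0562). The same held in SurvNESmut-GFP without untreated letter a (0.16) or b (0.13) and without TMZ-exposed letter a (0.14). GXYLT2, a xylosyltransferase, fell in Surv-GFP by 0.90 on the log2 scale (edgeR adjusted p = 2.9e-06) and had -0.20 in SurvNESmut-GFP (adjusted p = 0.152).

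Of 13 genes for the cutting of Notch, 5 rose (38.5%) and 6 fell (46.2%) in Surv-GFP, and 1 rose (7.7%) and 4 fell (30.8%) in SurvNESmut-GFP. ADAM17, a membrane protease, rose in Surv-GFP from 73.4 to 121 CPM and had 138 and 131 CPM in SurvNESmut-GFP. FURIN, which cuts the receptor on its way to the surface, rose from 159 to 193 CPM and fell from 351 to 274 CPM. TSPAN14, a partner of ADAM10, fell from 190 to 98.3 CPM and from 84.0 to 52.2 CPM. ADAM10 itself fell by 0.53 and 0.37 on the log2 scale (edgeR adjusted p = 2.5e-07 and 3.5e-05).

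Of 9 nuclear activators, 3 rose (33.3%) and 6 fell (66.7%) in Surv-GFP, and 1 rose (11.1%) and 4 fell (44.4%) in SurvNESmut-GFP. The Mastermind genes MAML2 (-0.72 and -0.30) and MAML3 (-0.57 and -0.91) fell in both clones on the log2 scale. CREBBP, an acetyltransferase, rose in Surv-GFP (0.51) and had 0.01 in SurvNESmut-GFP. KAT2A, another acetyltransferase, fell in Surv-GFP (-0.54) and rose in SurvNESmut-GFP (0.34).

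Of 15 nuclear repressors, 3 rose (20%) and 7 fell (46.7%) in Surv-GFP, and 1 rose (6.7%) and 6 fell (40.0%) in SurvNESmut-GFP. L3MBTL3, an RBPJ partner, fell from 19.5 to 8.66 CPM in Surv-GFP and from 14.3 to 9.15 CPM in SurvNESmut-GFP. TLE4, a Groucho corepressor, fell in Surv-GFP by 0.54 on the log2 scale (edgeR adjusted p = 3.1e-06) and had -0.13 in SurvNESmut-GFP (adjusted p = 0.106). TLE1 rose in both clones, from 72.5 to 88.6 CPM and from 53.5 to 89.0 CPM, whereas in SurvNESmut-GFP TLE3 fell from 40.5 to 26.0 CPM, with 52.1 and 52.5 CPM in Surv-GFP. Of 16 genes of endocytosis and ubiquitin ligation, 6 rose (37.5%) and 5 fell (31.2%) in Surv-GFP, and 4 rose (25.0%) and 3 fell (18.8%) in SurvNESmut-GFP. NEURL1B, a ligase for Notch ligands, fell from 20.5 to 7.42 CPM in Surv-GFP, and from 14.7 and 15.3 CPM to 4.38 and 6.24 CPM in SurvNESmut-GFP. FBXW7, which marks the Notch intracellular domain for degradation, rose in both clones, by 0.64 ± 0.06 (SE) on the log2 scale in Surv-GFP (edgeR adjusted p = 1.0e-07) and 0.56 ± 0.08 in SurvNESmut-GFP (adjusted p = 3.0e-05).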

How the data were processed

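Total RNA of 8 libraries in 4 groups was sequenced on Illumina machines. The authors deposited whole-number read counts per gene symbol, not normalized. Their processing notes name STAR 2.5.0b, Cufflinks 2.2.1 and edgeR without a role, while counting program, annotation, strandedness and build are not given there or in the paper. The 5 deposited comparison tables hold the authors' log2 fold changes, average log2 CPM, F scores, p-values and FDR and were not used. An earlier analysis of these data found that those tables follow the letters rather than the labelled exposure, which was not checked here, and all values here follow the labels.

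Counts were analysed with edgeR 4.0.16 and limma 3.58.1 in R 4.3.3, and with DESeq2 1.42.0 as an alternative. The 2 rows that name no gene or several genes were left out, and reads on no gene made up 11.2% to 14.3%. After edgeR's filter by group, 14201 genes entered 1 quasi-likelihood model of the 4 group means with TMM factors of 0.978 to 1.02. Benjamini-Hochberg adjustment ran over all tested genes with a threshold of 0.05. The fits were tested on simulated data.

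The members and lists were chosen with earlier results of these data known. Beside the members, the text names up to 2 genes with the smallest p from each list in each TMZ contrast, the 2 genes nearest in pattern to a member, BIRC5, CDKN1A, NOTCH2NL and cell type markers. A few genes that this rule selects are not reported here. Alternatives were other scalings, filters, tests, sample sets, the replicate letter as a term and each library left out. The letters were not taken as pairs. No label ties a letter to a shared culture or batch, and deviations of equal letters correlated with r of 0.0798 (untreated) and 0.159 (TMZ) between the clones and with -0.194 to -0.0638 between untreated and TMZ groups.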

Additional observations from a re-analysis of the deposited data

Results flagged for a closer look

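The TMZ effect, as log2 fold change in SurvNESmut-GFP minus that in Surv-GFP, differed between the clones in a test of the difference itself (edgeR adjusted p of at most 0.05) for 20 of the members, other pathway genes and check genes named here. Of the members, these were NOTCH1 (0.39), NOTCH3 (-1.41) and JAG1 (-1.50). Of the glycosyltransferases, they were POFUT1 (0.44), RFNG (-0.41), GXYLT2 (0.70) and MFNG (-2.37), which had 9 reads in untreated Surv-GFP, and of the proteases FURIN (-0.64) and ADAM17 (-0.80). Of the nuclear cofactors, they were CREBBP (-0.50), KAT2A (0.88), MAML2 (0.41), TLE1 (0.45), TLE3 (-0.65), TLE4 (0.41) and L3MBTL3 (0.53). Of the endocytosis and ubiquitin ligase genes, they were AAK1 (-0.76) and ITCH (-0.50). The check genes were CDKN1A (-1.56) and BIRC5 (-1.48). The call was lost for L3MBTL3 with DESeq2 (adjusted p = 0.0868) and with edgeR without untreated Surv-GFP letter b (adjusted p = 0.0710), TMZ-exposed Surv-GFP letter a (0.0624) or untreated SurvNESmut-GFP letter a (0.105), and for MFNG without untreated Surv-GFP letter a (edgeR adjusted p = 0.0625). For the member NOTCH3 the call was also lost, with DESeq2 (adjusted p = 0.0863) and without untreated SurvNESmut-GFP letter b (-1.04). The pathway genes that are no members were mostly picked for the smallest p of their list, so their number says nothing about the pathway. With 2 libraries per group, no library can be singled out from its own group by a test of outliers.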

How the results depend on the processing

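With 2 libraries per group, 1 library can decide a call, and genes of few reads such as JAG2 carry wide intervals. The 3 members higher with TMZ in Surv-GFP and the 5 lower in TMZ-exposed SurvNESmut-GFP kept their count under every alternative run. Of the 8 members, HES1 and NOTCH3 lost a call and HES1, NOTCH2 and JAG2 gained one under some alternative. Members lower in the difference of TMZ effects numbered 1 with DESeq2, in place of 2, and 1 to 2 with a library left out, where members higher in it numbered 1 to 2. Members higher in untreated SurvNESmut-GFP numbered 0 to 1 with a library left out. Members higher in TMZ-exposed SurvNESmut-GFP numbered 1 with no filter on low counts, with the method of edgeR 4 and with only the libraries compared, and 0 to 2 with a library left out.

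The replicate letter as a block in the model changed no call of a member, and 4186 and 4017 of all genes were then higher and lower with TMZ in Surv-GFP. The differences of letter a minus letter b in untreated and in TMZ-exposed Surv-GFP correlated at -0.194 across genes. The crossed pairing was therefore added after seeing the data. It gave 3 higher and 4 lower members with TMZ in Surv-GFP, beside 4364 higher and 4192 lower of the 14201 tested genes. Between the TMZ-exposed clones it gave 2 members higher and 5 lower in SurvNESmut-GFP, beside 4987 and 5008 of all genes.

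Values that changed sign lay near 0 or rested on 1 library, and the cause was not tested. The TMZ effect of TLE3 in Surv-GFP (0.01) was -0.01 with DESeq2 size factors, with library size alone and with no filter, -0.03 with a filter of 1 CPM, and -0.04 to 0.04 with a library left out. ITCH in SurvNESmut-GFP was 0.01 with library size alone. With a library left out, the TMZ effect in SurvNESmut-GFP ran from -0.06 to 0.08 for CREBBP, from -0.25 to 0.02 for NOTCH4 and from -0.51 to 0.16 for NOTCH3. The difference of TMZ effects of HES1 ran from -0.23 to 0.73. The untreated clone difference ran from -0.31 to 0.65 for HES1, from -0.03 to 0.23 for JAG1 and from -0.54 to 0.13 for NOTCH3, and the clone difference with TMZ from -0.12 to 0.01 for NOTCH2. Of 112 pairs of member levels per kb, 109 kept their order with the longest transcript as length.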
